A study of Mus musculus with 30 samples.

Results

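In CH12, a mouse B lymphoma line, ChIP-seq for the chromatin remodeller Snf2h was carried out in wild-type cells (wtCH12) and in mutant cells (mutCH12) whose CTCF gene had lost zinc fingers 9 to 11 on both alleles after Cas9 editing. Regions called in the mutant that share no base with a wild-type Snf2h region and no base with a cohesin region are described here. Of the 23441 mutant regions on chromosomes 1 to 19, 8547 (36.5%) met both conditions. By the single conditions, 56.3% of the mutant regions shared no base with a wild-type region and 65.3% shared none with a cohesin region. The regions were thus chosen by the deposited calls of 8 lists, and these counts and the strength of the calls are given as a description. The regions are called mutant-only cohesin-free regions below.

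Snf2h (gene Smarca5) is the ATPase of the ISWI remodelling complexes, which slide nucleosomes along DNA and space them evenly. CTCF is a zinc-finger protein that binds a long DNA motif, and its binding and the regular nucleosome arrays beside its sites are known to depend on Snf2h. Cohesin is a ring-shaped complex that extrudes chromatin loops and is held up at bound CTCF, so that most strong cohesin sites of a cell lie at CTCF motifs. Snf2h also acts away from CTCF, for example at promoters and enhancers bound by other factors. A region of Snf2h without cohesin is thus a place where a link to CTCF is not seen in the cohesin maps used.

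The cohesin regions came from another cell type. They were called in NIH3T3, an immortalised mouse embryonic fibroblast line, from ChIP for the cohesin subunits SMC1, RAD21 and SMC3. Each antibody was used in cells stably carrying an empty vector that expresses beta-galactosidase (NIH3T3+EV) and in cells stably expressing BORIS (CTCFL), a germline relative of CTCF (NIH3T3+BORIS, clone 2). The 2 CH12 lines carried no expression vector, and no further treatment is given for them. Absence of cohesin therefore means absence from the 6 fibroblast lists and was not measured in B cells. Each of the 8 groups had 1 list, so no difference between lines has a replicate check and no test between lines was possible. The NIH3T3+BORIS cells are a single clone, and the labels do not say whether mutCH12 is one. Lists of bound regions hold no expression values, so the B-cell identity of the lines could not be checked against marker genes.

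The 2 Snf2h libraries differed in depth. At the summit (the base of a region where reads pile up highest) the deposited fold and −log10 p can be solved for the fragments piled up there (the pileup) and for the local background rate. The lowest such rate, taken as the genome-wide mean of the library, was 3.36 fragments per position in wtCH12 and 2.58 in mutCH12. The narrowest region, taken as the fragment length, was 163 bp in wtCH12 and 187 bp in mutCH12. Together these gave 20.6 fragments per kb for wtCH12 and 13.8 for mutCH12. The mutant library was therefore the shallower, at 0.670 times the wild-type value. Even so, the mutant list was the longer, with 23441 regions on these chromosomes against 16793 in wild type. Regions without cohesin called in both lines had a median fold of 4.64 in the mutant list and 3.86 in the wild-type list. Their median pileup was 29 in the mutant list and 27 in the wild-type list, given side by side only.

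The mutant-only cohesin-free regions were narrow and of low to middle strength. Their median fold over background at the summit was 3.69, with quartiles of 3.25 and 4.29 and a range of 1.67 to 13.7. Their median pileup was 21 fragments, with quartiles of 18 and 25 and extremes of 10 and 120. Their median width was 241 bp and the widest was 1093 bp. Of the regions, 1100 (12.9%) were within 1 bp of the narrowest width the caller gave, against 3.18% of the regions without cohesin that were called in both CH12 lines. The other private classes were like the set in this, with 10.7% of mutant-only regions at cohesin and 14.6% of wild-type-only regions without cohesin. These values come from the calls that defined the set and are a description.

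Regions called in both lines were stronger on each of these measures. The 6760 mutant regions that were shared with wild type and lacked cohesin had a median fold of 4.64, a median pileup of 29 and a median width of 320 bp. The 4659 mutant-only regions at cohesin were closer, with a median fold of 3.59, the same median pileup of 21 and a median width of 255 bp. The counterparts in the other line, 3907 wild-type-only regions without cohesin, had a median fold of 3.34, a median pileup of 22 and a median width of 206 bp. The upper tail separated these private classes more than the middle did. The fold of the 90th percentile was 5.05 in the mutant-only cohesin-free regions, 4.54 in mutant-only regions at cohesin and 4.20 in wild-type-only regions without cohesin. Among shared cohesin-free regions the mutant list also had the higher value, 8.58 against 6.60 in the wild-type list. Folds from the 2 lists are set against different backgrounds and depths and are given side by side only.

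**Figure D1:**
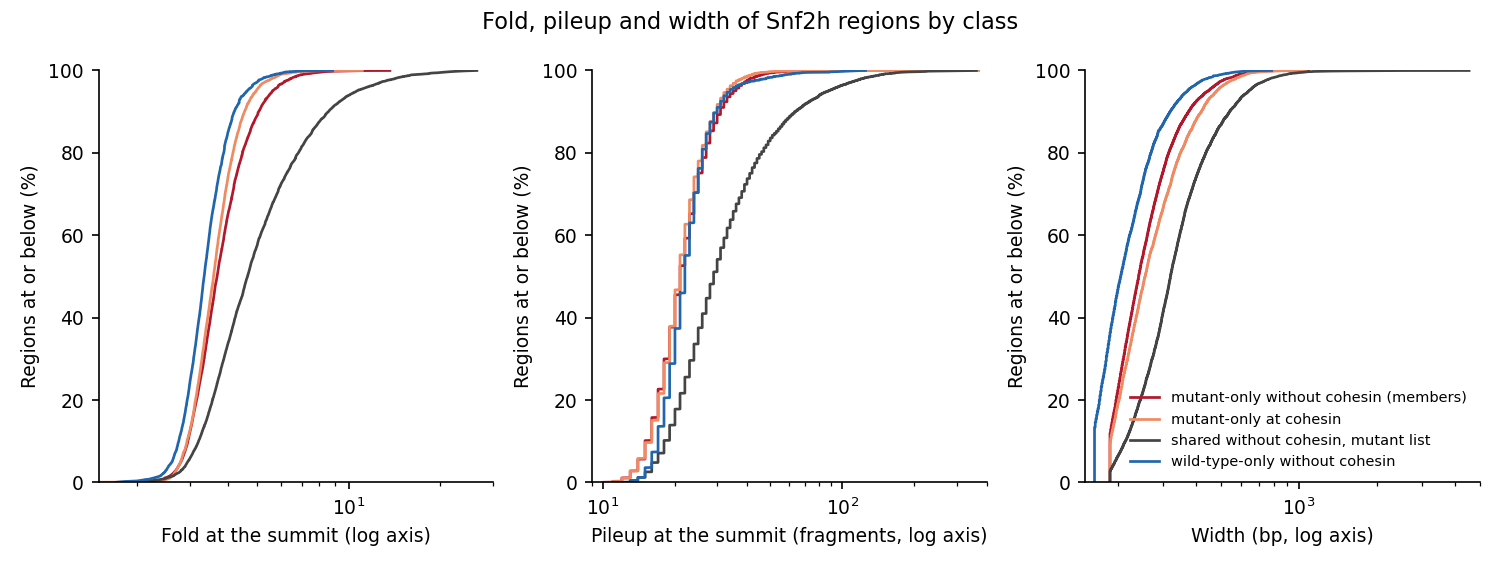
Cumulative share of regions (y axis, percent) at or below a given fold at the summit, pileup at the summit in fragments and width in bp (x axes, log scale), for 4 classes of Snf2h regions. In pileup the 3 private classes lie close together, with medians of 21 to 22 fragments, and the shared regions without cohesin lie to the right, with a median of 29.

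The set held few strong regions, but more than the corresponding wild-type-only class did. A −log10 q (the false discovery rate of the caller) of at least 10 was reached by 669 of the 8547 regions, or 7.83% (95% exact binomial interval 7.27 to 8.42), against 5102 of 23441 (21.8%) in the whole mutant list. A −log10 q of at least 20 was reached by 52. Of the 3907 wild-type-only cohesin-free regions 78 reached 10, which gives a ratio of 8.58 (6.78 to 10.99). For the whole lists, 5102 mutant against 2788 wild-type regions reached 10, a ratio of 1.83 (1.75 to 1.92), against 1.40 (1.37 to 1.42) as deposited. At the deposited threshold the ratio of mutant-only to wild-type-only cohesin-free regions was 2.19 (2.11 to 2.27), and at cohesin it was 1.83 (1.75 to 1.93). These intervals cover counting error only. The ratio at the deposited threshold depends on the length of the lists. With the mutant list cut to the length of the wild-type list by −log10 p it was 1.12 (1.07 to 1.16). For regions that reached 10, no ratio was taken with lists of equal length. The strength comes from the calls that defined both classes, so these ratios are a description.

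The share of regions without cohesin was close in mutant-only and shared regions as a whole. Of the 13206 mutant-only regions, 64.7% (63.9 to 65.5) shared no base with cohesin, close to the 65.3% of the whole mutant list. Among mutant regions shared with wild type the share was 66.0% (65.1 to 66.97), and among wild-type-only regions it was 60.6% (59.4 to 61.8). Judged at 200 bp around each summit, which sets aside the greater width of shared regions, the shares were 66.0% in mutant-only and 69.0% in shared regions. Where all lists were limited to a −log10 q of 10 or more, the shares were 80.4% (78.9 to 81.9) in mutant-only and 80.0% (78.3 to 81.6) in shared regions, with intervals that overlap. Of the mutant regions that reached this limit, with all lists as deposited for the overlaps, 78.7% of mutant-only and 71.3% of shared regions lacked cohesin.

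The share without cohesin moved with strength among the mutant-only regions. When the mutant list was cut into 10 equal parts by −log10 p, the share among mutant-only regions lay between 60.9 and 63.1% in the weakest 5 parts. It then rose part by part, from 64.5% in part 6 to 68.3, 72.3, 77.9 and 81.4% in parts 7 to 10. The strongest part held only 97 mutant-only regions, so its interval was wide (72.3 to 88.6). Over the strongest 20% of the list, 544 of 694 mutant-only regions lacked cohesin, or 78.4% (75.1 to 81.4), against 62.3% (61.3 to 63.3) over the weakest 50%. The share in the strongest 20% was above that in the weakest 50% on all 19 chromosomes, which held 18 to 65 such strong regions each. The chromosomes are parts of the same lists and not replicates, so this count is a description.

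Shared regions of the mutant list showed a smaller rise, from 61.9% (60.1 to 63.7) in the weakest 50% to 71.4% (69.9 to 72.8) in the strongest 20%. At 200 bp around each summit, shared regions of the mutant list rose from 63.8 to 75.5%. Mutant-only regions rose from 63.5 to 80.7% in that window. In the wild-type list, shared regions rose from 63.5% (61.9 to 65.0) in the weakest 50% to 73.2% (71.6 to 74.7) in the strongest 20%. Wild-type-only regions were ranked within their own list. Their share without cohesin was 60.8% (59.4 to 62.2) in the weakest 50% and 62.0% (55.2 to 68.4) in the strongest 20%, which held 221 such regions. The share was higher in the strong regions on 11 of 19 chromosomes, which held only 4 to 23 such strong regions each. With so few regions per chromosome, this count cannot be set against that of mutant-only regions. The 2 lists differ in length and each line has 1, so these shares are given side by side and their difference was not tested. With the mutant list cut to the wild-type length and ranked anew, the share in its strongest 20% was 79.8% (74.8 to 84.2, 297 mutant-only regions), against 61.2% (54.9 to 67.2, 255 regions) in wild-type-only regions. Where all 8 lists were limited to a −log10 q of 10 or more, 80.4% (78.9 to 81.9) of all 2845 mutant-only and 73.7% (69.7 to 77.4) of all 524 wild-type-only regions lacked cohesin. The strongest 20% of these short lists held 74 mutant-only regions, of which 86.5% (76.5 to 93.3) lacked cohesin, and 5 wild-type-only regions, too few for a share. This limit also shortened the lists used for the overlaps. A region that met only a weaker call there counted as private or without cohesin. With all lists as deposited for the overlaps, 850 mutant-only and 133 wild-type-only regions reached the limit. Of these, 78.7% (75.8 to 81.4) and 58.6% (49.8 to 67.1) lacked cohesin.

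**Figure D2:**
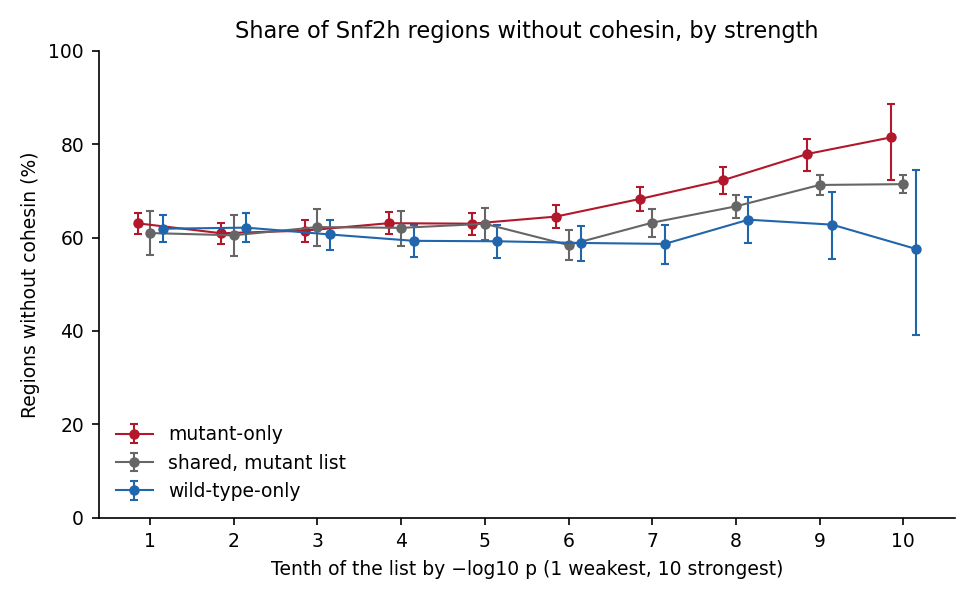
Share of Snf2h regions that shared no base with any of the 6 cohesin lists (y axis, percent) in each of 10 equal parts of the region's own list by −log10 p (x axis, weakest to strongest), for mutant-only, shared (mutant list) and wild-type-only regions. Bars are 95% exact binomial intervals. The mutant-only points rise to 81.4% in the strongest part, and the wild-type-only points stay between 57.6 and 63.8%.

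The distance to the nearest wild-type Snf2h region shows how far the set lies from places called in wild type. The median gap was 20843 bp, with quartiles of 7420.5 and 52048.5 bp. A gap of over 100 kb was found for 1075 regions (12.6%), and the largest was 2132481 bp. Within 1 kb of a wild-type region lay 821 regions, or 9.61% (8.99 to 10.3). In 392 of these the nearest wild-type region was itself absent from the mutant list, and the summits lay a median of 476.5 bp apart. In the other 429 it was shared with another mutant region, at a median of 670 bp. Pairs of the first kind are places where both lines have a call within 1 kb but at positions that do not touch. The wild-type partners of that kind were weak, at a median percentile of 27.0 by −log10 p in their list, against 32.5 for all wild-type-only regions.

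Regions just inside and just outside the wild-type edge of the rule had like values. The region on chromosome 10 from 69582659 to 69582856 belonged to the set although no base lay between it and a wild-type region, with a fold of 3.47 and a pileup of 26. The region on chromosome 9 from 121223734 to 121224075 did not belong, because it shared 1 base with a wild-type region, with a fold of 3.78 and a pileup of 27. In all, 155 of the regions had a wild-type region within 100 bp, and 19 shared cohesin-free regions shared at most 10 bp with one.

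Most of the set lay near cohesin without touching it. The median gap to the nearest region of the 6 cohesin lists was 3694 bp, with quartiles of 1059.5 and 9377 bp. Of the 8547 regions, 24.2% (23.3 to 25.1) had a cohesin region within 1 kb and 76.4% (75.5 to 77.3) within 10 kb. Only 90 (1.05%) had none within 100 kb. Shared regions without cohesin had a median of 3677.5 bp and 75.9% (74.8 to 76.9) within 10 kb. At short range their shares were lower, with 22.0% (21.0 to 23.0) within 1 kb, and 2.71% (2.33 to 3.12) within 100 bp against 3.77% (3.37 to 4.19) of the set. Wild-type-only cohesin-free regions lay somewhat farther away, at a median of 4399 bp and with 71.2% (69.8 to 72.6) within 10 kb. Among the 2068 regions with cohesin within 1 kb, 853 (41.2%) had it in all 6 lists and 362 (17.5%) in 1 list only.

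The cohesin edge of the rule was also narrow. The region on chromosome 15 from 74582986 to 74583172, with a fold of 4.11 and a pileup of 22, touched a cohesin region with no base between, and so did 2 other regions of the set. On the far side, 506 of the 4659 mutant-only regions at cohesin (10.9%) shared a base with only 1 of the 6 lists. If cohesin had to be present in 2 lists or more, these would join and the set would hold 9053 regions.

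**Figure D3:**
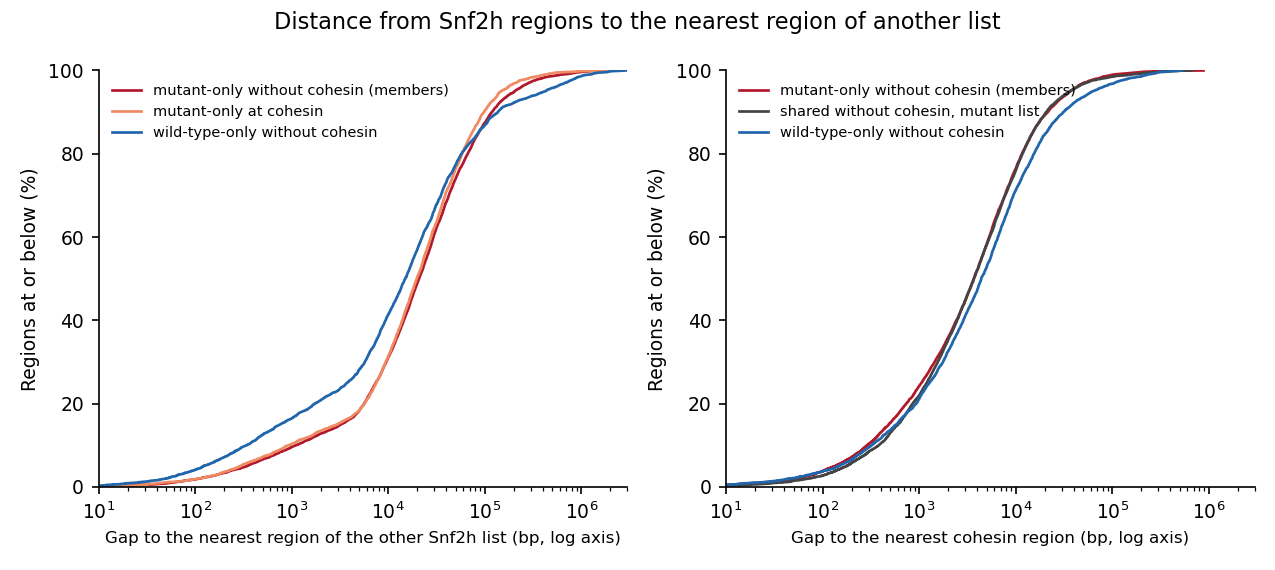
Cumulative share of regions (y axis, percent) within a given gap (x axis, bp, log scale) of the nearest region of the other Snf2h list (left) and of the nearest cohesin region in any of the 6 NIH3T3 lists (right). On the right, mutant-only and shared cohesin-free regions run together, with medians of 3694 and 3677.5 bp.

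The strongest regions that lay more than 1 kb from any wild-type Snf2h and any cohesin region were examined one by one. Such isolated regions made up 5966 (69.8%) of the set. The strongest was on chromosome 6 from 65612182 to 65612574, with a fold of 10.8, a −log10 p of 49.99 and a pileup of 68 over a background rate of 5.40. Its nearest wild-type Snf2h region was 67692 bp away and its nearest cohesin region 10358 bp away. Even this region stood only at percentile 97.4 of the mutant list by −log10 p, and all mutant regions ranked above it were also called in wild type.

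The next isolated regions had lower backgrounds. On chromosome 4 from 139950468 to 139950803 the fold was 13.0 and the pileup 51, with a gap of 160503 bp to wild type and 3508 bp to cohesin. On chromosome 6 from 132413625 to 132413929 the fold was 13.7, the highest of the whole set, and the pileup was 48. That region lay 133604 bp from a wild-type region and 185598 bp from cohesin, far from both. Its background rate of 2.58 equalled the lowest rate, taken as the genome-wide mean. The sources used here do not say whether that rate came from a control or from the ChIP library. It therefore does not show whether Snf2h reads rose around the region.

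Other isolated regions at the top were found on chromosomes 2, 10 and 15. The one on chromosome 2 from 165540496 to 165540817 had a fold of 10.4 and a pileup of 52, with a wild-type region 4561 bp away and a cohesin region 1416 bp away. The one on chromosome 10 from 117827071 to 117827373 had a fold of 10.95 and a pileup of 47, with gaps of 90524 bp and 15827 bp. The one on chromosome 15 from 78283312 to 78283585 stood apart, since its pileup of 80 rose above a background of 13.5 fragments and its fold was only 5.58. That background was 5.24 times the genome-wide mean of the library, and a wild-type region lay 1267 bp away.

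Each of the 19 chromosomes held at least 1 strong isolated region. The strongest of each chromosome had folds of 5.58 to 13.0 (median 8.93), pileups of 28 to 80 (median 46) and widths of 240 to 593 bp. Their gaps ranged from 1267 to 919193 bp to wild type (median 44481 bp) and from 1416 to 221573 bp to cohesin (median 10265 bp). The most remote from wild type was on chromosome 12 from 95734917 to 95735258, with a fold of 10.4, a pileup of 37, and 919193 bp to the nearest wild-type region. The weakest of these regions was on chromosome 14 from 9787296 to 9787535, with a fold of 8.10 and a pileup of 28.

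The widest members were not the strongest. The widest, on chromosome 17 from 31472352 to 31473444, covered 1093 bp with a fold of 4.80 and a pileup of 29. The region on chromosome 11 from 55207952 to 55208892 covered 941 bp with a fold of 4.36, and cohesin of 3 lists lay 38 bp from it. The third, on chromosome 11 from 106612243 to 106613149, covered 907 bp with a fold of 3.35 and a wild-type region 998 bp away. None reached the width of the widest shared cohesin-free region of the mutant list, 4548 bp.

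Most regions of the set had no other member nearby. With members joined when at most 10 kb apart, 6762 had no other member beside them, 1490 lay in 745 pairs and 76 runs held 3 members each. Counting all mutant regions as neighbours, 3547 members (41.5%, 40.5 to 42.6) had one within 10 kb. In the other classes of the mutant list this share was 41.3 to 44.3%. Another member within 10 kb was found for 20.9% (20.0 to 21.8) of the set. The figure was 20.1% (19.1 to 21.1) for shared cohesin-free regions of the mutant list, 699 of 4659 (14.0 to 16.1%) for mutant-only regions at cohesin and 10.8% (9.87 to 11.8) for wild-type-only cohesin-free regions. The classes differ in size, and a larger class has closer neighbours by its number alone. Within 5 kb the share of the set was 11.7%, and the number of nearest neighbours stepped up just past 5 kb in both Snf2h lists. The control behind the local background is not given in the sources used here, so whether reads of a neighbouring region enter a region's background and fold is not known.

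Among close neighbours, members stood beside other members in a larger share than their share of the list. Any other mutant region lay within 1 kb of 1199 members (14.0%), and in 601 of these (50.1%, 47.3 to 53.0) the nearest was another member, although members make up 36.5% of the list. It was a shared region without cohesin in 293 cases (24.4%), a mutant-only region at cohesin in 171 (14.3%) and a shared region at cohesin in 134 (11.2%). The other 3 classes of the mutant list also stood beside their own kind above their share of the list. The own kind made up 47.3% of close neighbours against 28.8% of the list for shared regions without cohesin, 44.1% against 19.9% for mutant-only regions at cohesin and 37.0% against 14.8% for shared regions at cohesin. These shares are a description, since class membership comes from the rule.

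The longest run was on chromosome 19 from 7196289 to 7219386, where 6 members lay within 23098 bp with no wild-type region and no other mutant region between them. The first, from 7196289 to 7196608, was the strongest, with a fold of 6.82 and a pileup of 46. The other 5 had folds of 3.03 to 4.32 and pileups of 15 to 25. Merged over the 6 lists, 3 cohesin regions lay in the same stretch, so it was not a stretch free of cohesin. A run of 5 was found on chromosome 7 from 146869845 to 146898101, with folds of 2.91 to 4.53, and it also held 1 wild-type region. The strongest run of 4, on chromosome 5 from 121128314 to 121155254, had folds of 3.32 to 6.60 and held 2 wild-type regions.

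The set was found on all 19 chromosomes. Members made up between 32.9% (30.8 to 35.0, chromosome 11) and 42.1% (38.8 to 45.4, chromosome 12) of the mutant regions of a chromosome, against 36.5% overall. The ratio of members to wild-type-only cohesin-free regions varied more. It was highest on chromosome 15, with 434 against 125 regions, a ratio of 3.47 (2.84 to 4.27), and on chromosome 8, with 455 against 150, a ratio of 3.03 (2.52 to 3.67). It was lowest on chromosome 16, with 267 against 173, a ratio of 1.54 (1.27 to 1.88), and on chromosome 14, with 407 against 248, a ratio of 1.64 (1.40 to 1.93). It was above 1 on each of the 19 chromosomes for the lists as deposited. With the mutant list cut to the wild-type length it was above 1 on 13, with the interval wholly above 1 on 7 and wholly below 1 on 3, chromosomes 10, 14 and 16. It was then 1.92 (1.58 to 2.34) on chromosome 15, 1.77 (1.47 to 2.15) on chromosome 8, 0.840 (0.712 to 0.989) on chromosome 10, 0.842 (0.709 to 0.9996) on chromosome 14 and 0.767 (0.619 to 0.948) on chromosome 16. With a −log10 q of 10 or more in all lists it was 9.07 (5.31 to 16.6) on chromosome 15, from 15 wild-type-only regions. Over all 19 chromosomes it was then 5.93 (5.32 to 6.62), a value inside the interval of chromosome 15.

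Read levels at shared regions moved with this ratio. For each of the 10235 shared mutant regions, the background rate and the pileup were divided by those of the wild-type region it overlapped most, and scaled to a median of 1 over all pairs. On chromosome 15 the median background ratio was 1.08 and the median pileup ratio 1.09, the highest of the 19. On chromosome 16 they were 0.942 and 0.924, the pileup ratio being the lowest. Across the 19 chromosomes the ratio of private regions and the background ratio had a Spearman rho of 0.686, given as a description, since both come from the same 2 libraries. The part of these read levels in the count of private regions was not tested. The DNA copy number of the 2 lines was not analysed here, so a difference in copies and a difference in binding cannot be told apart in these ratios.

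**Figure D4:**
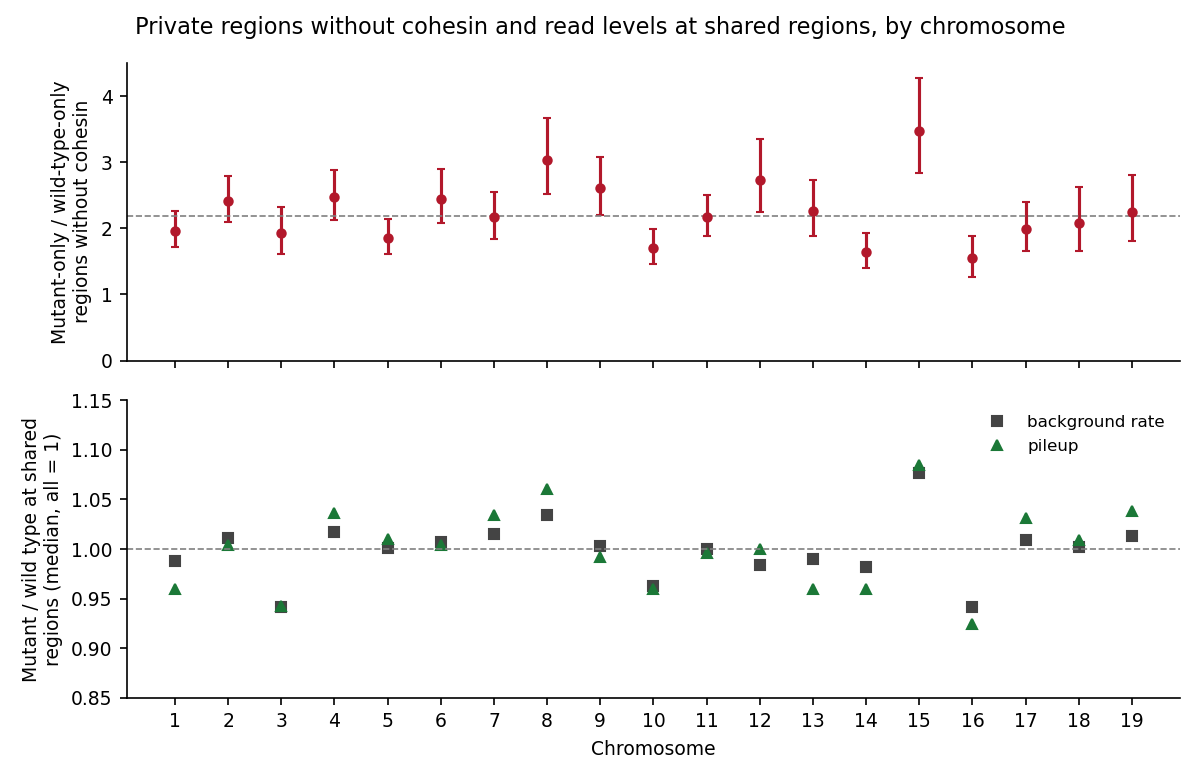
Ratio of mutant-only to wild-type-only cohesin-free regions on each of the 19 chromosomes (top, bars are 95% intervals from the exact binomial, dashed line at 2.19 for all) and the median ratio of mutant to wild-type background rate and pileup at shared regions (bottom, scaled to 1 over all pairs). Chromosome 15 is highest in both panels, with a ratio of 3.47 and a background ratio of 1.08.

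In bins of 10 Mb the same values were far more extreme in a few stretches. Bins with at least 30 private cohesin-free regions and 10 shared regions numbered 181, and in 7 of them the wild-type-only regions were the more frequent. The 4 bins with the highest background ratios lay on chromosomes 8 and 15. On chromosome 8 between 20 and 30 Mb the background ratio was 1.77, with 35 members against 5 wild-type-only regions. On the same chromosome between 10 and 20 Mb it was 1.54, with 31 against 2. On chromosome 15 between 100 and 110 Mb it was 1.56, with 52 against 6, and between 50 and 60 Mb it was 1.39, with 49 against 7. In these bins the pileup at shared regions was also high, between 1.25 and 1.45 times that of all pairs.

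The bins with the lowest background ratios had the opposite balance or nearly so. On chromosome 16 the ratio was 0.649 between 90 and 100 Mb, with 38 members against 44 wild-type-only regions, and 0.655 between 80 and 90 Mb, with 8 against 22. On chromosome 10 between 50 and 60 Mb it was 0.753, with 29 against 25. On chromosome 5 between 10 and 20 Mb it was 0.776, with only 8 members against 50 wild-type-only regions, the most one-sided bin toward wild type. The balance and the background ratio had a Spearman rho of 0.365 over the 181 bins, which share the 2 libraries.

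The ratio was also taken without the stretches of extreme background. Among all bins with 10 or more shared regions and no minimum of private ones, 213 had a background ratio between 0.9 and 1.1, and they held 7940 members and 3530 wild-type-only cohesin-free regions, a ratio of 2.25 (2.16 to 2.34). Without chromosomes 8 and 15 the ratio was 2.11 (2.03 to 2.19), against 2.19 in all. The share without cohesin in the strongest 20% of mutant-only regions was 79.4% without these 2 chromosomes, against 78.4% with them.

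**Figure D5:**
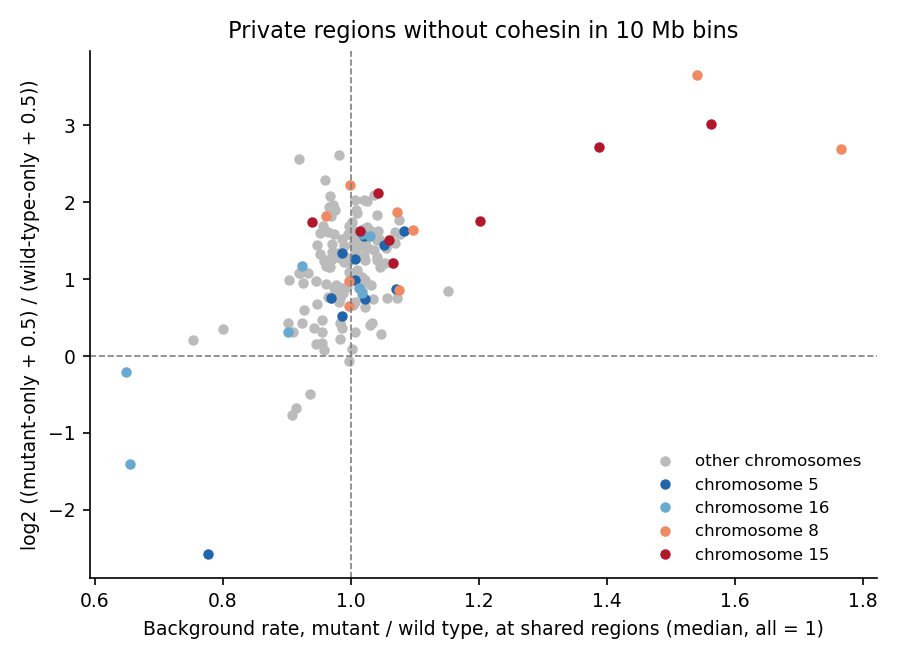
Balance of mutant-only and wild-type-only cohesin-free regions in 181 bins of 10 Mb (y axis, log2 of the counts with 0.5 added to each) against the median ratio of mutant to wild-type background rate at shared regions (x axis, scaled to 1 over all pairs). Most bins lie near a background ratio of 1 and above 0 on the y axis, and 4 bins of chromosomes 8 and 15 at 1.39 to 1.77 and 4 bins of chromosomes 5, 10 and 16 at 0.649 to 0.776 lie apart.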

How the data were processed

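The members and all lists and classes were chosen with earlier results of these data known. The authors deposited 1 peak list per sample in the 10-column narrowPeak layout, with a score per region, a ratio (the fold of the summit pileup over a local background), and −log10 p and −log10 q values of the summit. The submitters' processing notes name Bowtie2, Bowtie, SAMtools, MACS2 and deepTools and the builds mm9 and hg19, without roles. The control, the local window and the filters are not given in the sources used here. Names of Snf2h regions contain a tag that may stand for merged replicates, which no label states, and each list was treated as 1 sample. Of the 30 samples of the series, 22 were not used here.

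Coordinates are those of the lists, counted from 1. They reach 197182423 on chromosome 1, past the last GRCm38 gene end there (195291439). The gene and promoter tables at hand were of GRCm38, so genes and sequences at the regions were not analysed here, and the planned start-site and motif shares were not run.

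Overlap meant at least 1 shared base, and a gap is the number of bases between regions. Pileup and background rate were solved from fold and −log10 p under a Poisson tail with 1 added to pileup and rate. A whole pileup was found within 0.001 in −log10 p for 100% of the wild-type summits and all but 5 mutant summits. The code was tested on simulated data. Shares carry exact 95% binomial intervals, and the interval of a ratio is the binomial one of its 2 counts. They cover counting error only, and neighbouring regions are not independent. Named regions were the 6 strongest members at most 3 kb wide with no wild-type or cohesin region within 1 kb, the strongest such member per chromosome, the 3 widest, the 3 longest runs, and those nearest to each edge of the rule. Python 3.11.15, numpy 2.4.6, pandas 2.3.3 and scipy 1.17.1 were used.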

Additional observations from a re-analysis of the deposited data

How the results depend on the processing

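Of the recomputed values, 91 stayed within their counting interval (within 1.5 times for the number of members) and 50 moved. The order of 2 shares turned: without a limit on q, 64.7% of mutant-only and 66.0% of shared regions lacked cohesin, and under both limits on q the mutant-only share was the higher, with overlapping intervals where all lists were limited. Where all lists were limited to a −log10 q of 10 or more there were 2288 members, with a ratio to wild-type-only regions of 5.93, median fold 5.68, median width 317.5 bp, 7.08% with another member within 10 kb, and cohesin-free shares of 80.4% (mutant-only), 80.0% (shared) and 86.5% (strongest 20% of the limited list, mutant-only). With that limit on the Snf2h regions counted, private and shared, and all lists as deposited for the overlaps, the values were 669 members, a ratio of 8.58, 5.66, 284 bp, 0.897%, 78.7% (mutant-only) and 71.3% (shared). With the mutant list cut to the wild-type length they were 5328 members, a ratio of 1.12, 4.10, 251 bp, 13.9% and 66.7% (mutant-only). Where no wild-type or cohesin region was allowed within 1 kb, the median fold was 3.78, 17.2% had a member within 10 kb, and the cohesin-free shares were 50.1% (mutant-only), 50.1% (shared), 63.0% (strongest 20%, mutant-only) and 51.5% (strongest 20%, wild-type-only).

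On chromosome 15 the ratio of members to wild-type-only regions was 3.47, and it was 1.92 with the cut list, 9.07 with the limit on all lists and 13.7 (4.36 to 69.0, from 3 wild-type-only regions) with the limit on counted regions only. Under the other settings the cohesin-free shares of mutant-only and shared regions were 67.9 and 68.8% with the BORIS cohesin lists, 67.3 and 68.5% with the empty-vector lists, and 68.6 and 69.6% where 2 lists or more had to hold cohesin, with 81.6% for the strongest 20% of mutant-only regions. They were 67.3 and 68.3% without the SMC1 lists, 66.2 and 67.4% without the SMC3 lists, 66.0 and 69.0% at 200 bp around the summit, and 68.3 and 69.4% for an overlap of 50% of the shorter region. That overlap gave a ratio of 2.10 and 22.1% with a member within 10 kb, and adding X and Y gave a ratio of 2.09. Another member lay within 5 kb of 11.7% and within 20 kb of 33.0%. The cause of these moves was not tested, beyond the shorter lists that the stricter settings leave.

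The 200 bp window, the values for the strongest 20%, the ratios on single chromosomes under other settings, the bins of like background and leaving out chromosomes 8 and 15 were chosen after seeing the data. The planned start-site and CTCF motif shares were not run, for lack of an annotation on the coordinates of the lists. No paired analysis was possible because each group has 1 list and no test was made. With 13.8 fragments per kb in the mutant and 20.6 in wild type, absence from a list does not show absence of Snf2h, and a region under 10 fragments in the mutant or 13 in wild type was not detectable at these depths.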

Other observations

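Few summits of the set had their nearest other mutant summit at 3 to 5 kb. Of the 8547 members, 171 had it at 3 to 4 kb and 167 at 4 to 5 kb, but 299 at 5 to 6 kb and 345 at 6 to 7 kb, a rise of 1.79 times across 5 kb. The whole mutant list rose by 1.61 times there (494 to 794 regions) and the wild-type Snf2h list by 1.63 times (282 to 461). In each of the 6 cohesin lists the count fell across 5 kb, to 0.791 to 0.853 times. The number of members counted as neighbours within 5 or 10 kb includes this step, and its source was not tested. Whether the local background came from a control or from the ChIP library itself is not given in the sources used here.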
